A study of Homo sapiens with 94 samples.

Results

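K-975 at 30 mg/kg, the lowest of the 3 doses given in this xenograft study, was compared with vehicle 24 h after a single oral dose. The comparison holds 4 tumors of the 30 mg/kg cage group (replicates 2 to 5) and 4 tumors of the vehicle cage group (replicates 1 to 4), 8 of the 94 tumors of the series. They were taken by the cage group label, and a library was left out where fewer than 10000 genes reached an FPKM of 1 (FPKM are fragment counts divided by transcript length and by the library's total). This left out replicate 1 of the 30 mg/kg group, in which 702 genes reached that level. All mice were female CB17 SCID mice of 6 to 8 weeks that carried NCI-H226 under the skin, an established human cell line of pleural mesothelioma with a deletion of NF2. Tumors measured around 300 mm3 at dosing. K-975 and vehicle (EtOH, Solutol and injectable glucose at pH3) were given p.o., K-975 at 30 mg/kg in 10 mL/kg and vehicle in 20 mL/kg. The labels of dosed tumors give no sampling time, and 24 h was taken from an untreated group labelled with that time under the same study number. Each 24 h group was 1 cage group, so the dose, the cage and the dosing volume cannot be told apart in this comparison. Further groups of 24 h were used beside it: 5 untreated tumors, 4 tumors at 100 mg/kg (10 mL/kg, 1 library left out) and 5 at 200 mg/kg (20 mL/kg). The model is 1 cell line in mice that lack T and B cells. The labels do not say whether the tumors of a group came from separate implantations of different cultures, so p-values measure the spread between tumors of this model. For single genes that spread was estimated over all 19 groups of the series.

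In the Hippo pathway STK4, STK3, LATS1 and LATS2 form a kinase cascade, with NF2 upstream. The cascade leads to phosphorylation of the co-activators YAP1 and TAZ (WWTR1), which keeps them out of the nucleus. Without this restraint YAP1 and TAZ bind the TEAD transcription factors and raise the expression of genes such as CCN1 (CYR61), CCN2 (CTGF) and ANKRD1. TEAD proteins carry a palmitate in a central lipid pocket, and K-975 binds covalently in this pocket. Pleural mesothelioma often carries losses of NF2 or LATS2.

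The 8 libraries were alike in how many genes reached an FPKM of 1 (11356 to 11571, with 11344 to 11665 in all 91 libraries kept) and in relative depth, judged by how large the values of seldom detected genes were (0.934 to 1.04 of the median library). FPKM hold no read counts, so the depth behind a value is unknown and no counting interval could be given. Of the mesothelial markers, which define the labelled cell type, 14 of 15 reached an FPKM of 1, and their summed FPKM was 3849 to 4593 at 30 mg/kg and 3321 to 3546 in vehicle. NF2 was listed at 0 in 6 of the 8 tumors and was at most 0.148. Values of 0 also occur for genes that every cell uses (POLR2A was listed at 0 in 1 of the 8 tumors and was at most 0.758), so a 0 is given here only as a listed value. Markers of other cell types were read from human genes, whereas the host is a mouse and the treatment of mouse reads is not given. Their values are therefore not a measure of host cells, and which cells gave them was not tested. The endothelial markers summed to 43.5 to 109 at 30 mg/kg and 33.2 to 71.1 in vehicle, with CLDN5 and ERG at 0. The immune markers summed to 104 to 160 and 148 to 227, led by CD68, with TYROBP, CD3E and MS4A1 among those at 0. The fibroblast markers summed to 832 to 1243 and 873 to 1072, led by COL1A1, with DPT at 0, and the red cell and hepatocyte markers to at most 1.85 and 4.26.

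At 30 mg/kg, 5 of 13036 genes differed from vehicle at an adjusted p under 0.05 (limma, Benjamini-Hochberg), 4 higher (0.0307% of the genes tested) and 1 lower (0.00767%). CARNS1 (carnosine synthase), GYG2 (glycogenin 2, which primes glycogen chains), CTTN (cortactin, which binds branched actin filaments) and PIGZ (a mannosyltransferase of GPI anchor synthesis) rose, and NOPCHAP1 (a chaperone for the assembly of small nucleolar ribonucleoproteins) fell. None of the 5 is a member of the 39 gene lists described below. At an unadjusted p under 0.05 there were 1308 genes, 775 higher (5.95%) and 533 lower (4.09%), and the 2 arms did not overlap in 508 genes that were higher (3.9%) and in 370 that were lower (2.84%) at 30 mg/kg. Over all genes the log2 fold change had a median of 0.02.

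CARNS1 (ENSG00000172508.10, chr11:67415678-67425607) was at an FPKM of 28.0, 16.2, 19.3 and 19.9 in the 4 treated tumors and of 8.99, 7.74, 5.90 and 9.14 in the 4 vehicle tumors. All treated tumors lay above all vehicle tumors, with means of 20.9 ± 5.05 (SD, n = 4) and 7.94 ± 1.50 (SD, n = 4), and the log2 fold change on the log2(FPKM + 1) scale was 1.28 with a standard error of 0.24 (limma, adjusted p = 0.0126). GYG2 (ENSG00000056998.19, chrX:2828788-2882820) was at an FPKM of 4.24, 8.04, 5.99 and 5.31 in the 4 treated tumors and of 2.73, 1.29, 1.76 and 0.588 in the 4 vehicle tumors. Again the arms did not overlap, at a lower level (5.90 ± 1.60 (SD, n = 4) against 1.59 ± 0.899 (SD, n = 4)), and the log2 fold change was 1.45 ± 0.28 (SE, adjusted p = 0.0140). CTTN (ENSG00000085733.15, chr11:70398404-70436584) was at an FPKM of 271, 276, 255 and 280.3 in the 4 treated tumors and of 229, 218, 214 and 229 in the 4 vehicle tumors. This was the smallest change of the 5 at the highest level of expression (271 ± 11.0 (SD, n = 4) against 223 ± 7.78 (SD, n = 4)), with a log2 fold change of 0.28 ± 0.06 (SE, adjusted p = 0.0190). PIGZ (ENSG00000119227.7, chr3:196946343-196969060) was at an FPKM of 38.1, 38.4, 45.2 and 39.8 in the 4 treated tumors and of 23.5, 23.2, 28.9 and 25.2 in the 4 vehicle tumors. The treated mean was 40.4 ± 3.31 (SD, n = 4) and the vehicle mean 25.2 ± 2.60 (SD, n = 4), without overlap, a log2 fold change of 0.66 ± 0.14 (SE, adjusted p = 0.0190). NOPCHAP1 (ENSG00000151131.10, chr12:104986310-105049737) was at an FPKM of 2.29, 7.61, 0.432 and 0.778 in the 4 treated tumors and of 11.4, 6.45, 8.93 and 5.91 in the 4 vehicle tumors. Treated replicate 3 lay within the vehicle values and the other 3 treated tumors below them, and the log2 fold change was -1.62 ± 0.34 (SE, adjusted p = 0.0190).

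The spread of each gene was estimated over all 19 groups, and the calls depended on single libraries and on that choice. With only the 24 h groups fitted, 0 genes were called (limma, 1174 at an unadjusted p under 0.05), and with only the 2 groups compared, 32 were called, of the 5 only CARNS1 and PIGZ. Leaving out 1 of the 8 libraries at a time left 0 to 3 genes called. There were 1, 2, 2 and 2 without treated replicates 2, 3, 4 and 5, and 3, 0, 2 and 3 without vehicle replicates 1, 2, 3 and 4. CARNS1 kept its call in 5 of these 8 fits, GYG2 in 4, CTTN in 3, NOPCHAP1 in 2 and PIGZ in 1, and their log2 fold changes kept their sign in all 8, from 1.13 to 1.38 for CARNS1 and from -2.14 to -1.27 for NOPCHAP1. In GENCODE 29, CARNS1 overlaps PPP1CA, GYG2 overlaps GYG2-AS1, CTTN overlaps an antisense gene and NOPCHAP1 overlaps ALDH1L2, each on the opposite strand. PIGZ overlaps no other gene. Whether reads were assigned by strand is not given in the sources used here, so the reads of such partners cannot be told apart. With the library of 702 genes put back into the treated group (all 94 libraries), 2960 genes were called and the median over all genes was -0.65, so values with it are given only among the alternatives.

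At the higher doses, given as values side by side, mean CARNS1 was 24.7 at 100 mg/kg and 25.4 at 200 mg/kg, and PIGZ 41.4 and 41.7. The 30 mg/kg means were 20.9 and 40.4 and the vehicle means 7.94 and 25.2. Mean GYG2 was 3.11 and 3.67 and CTTN 245 and 235, between the 30 mg/kg and vehicle means. Mean NOPCHAP1 was 7.99 and 5.50, likewise between them (2.78 and 8.19). None of the 5 genes passed the threshold in the direct tests of 100 or 200 mg/kg against 30 mg/kg (smallest adjusted p = 0.0606).

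**Figure D1:**
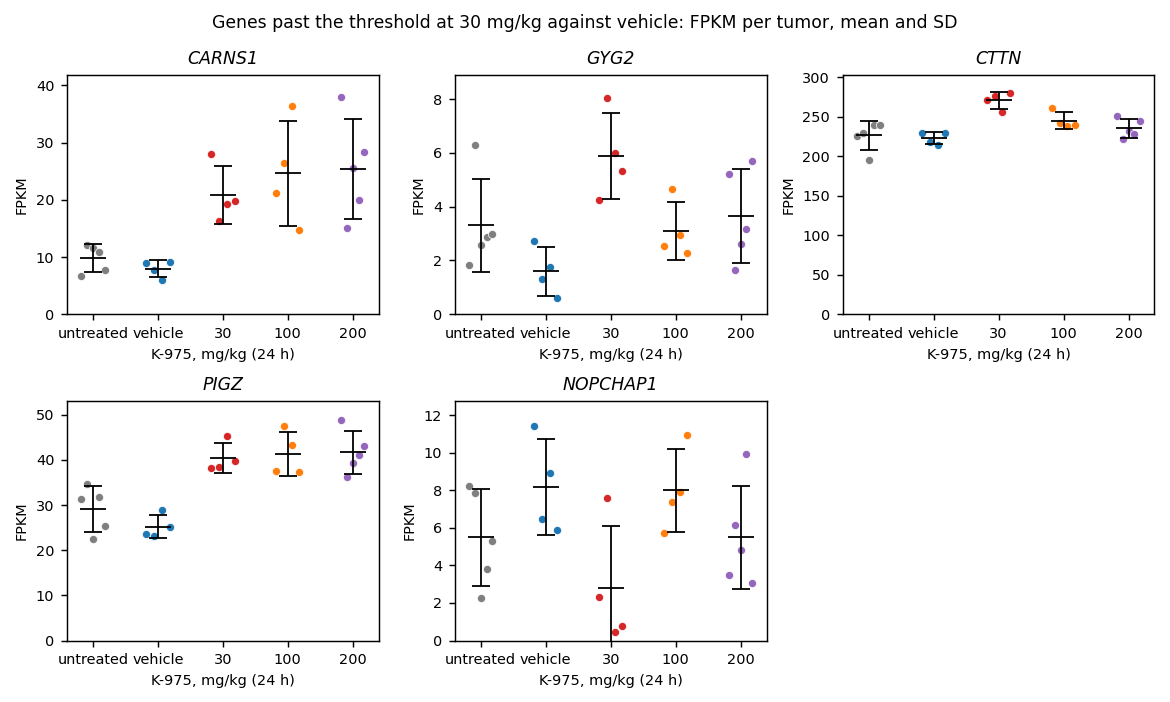
FPKM of the 5 genes called at 30 mg/kg against vehicle, for each tumor of the 5 groups sampled at 24 h (points), with the group mean and SD (black). CARNS1, GYG2, CTTN and PIGZ at 30 mg/kg lie above all vehicle tumors, and NOPCHAP1 at 30 mg/kg ranges from 0.432 to 7.61 against 5.91 to 11.4 in vehicle.

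Of the genes that did not pass, the 5 with the smallest p and a higher level at 30 mg/kg were ARHGEF26 (a guanine nucleotide exchange factor), VPS52 (of the GARP tethering complex), GSN (gelsolin, which severs actin filaments), ANXA8 (an annexin) and LRRN4 (a membrane protein of mesothelial cells). Their log2 fold changes were 0.68, 0.46, 0.90, 0.25 and 0.65, with adjusted p (limma) of 0.0554 for ARHGEF26 and 0.0733 for the other 4. In all 5 the arms did not overlap (3.9% of all genes). They were picked by their p between these same arms, so this separation is no further evidence. ANXA8 has a near-identical copy, ANXA8L1, and its value is uncertain for that reason. The 5 with a lower level were ACTN1 (alpha-actinin 1, an actin crosslinker), ADIPOR2 (an adiponectin receptor), ACAT2 (acetoacetyl-CoA thiolase), HNRNPC (an RNA-binding protein) and TIFA (an adaptor of NF-kB signalling), at -0.34, -0.69, -0.72, -0.42 and -1.10 (adjusted p = 0.0784, 0.105, 0.111, 0.111 and 0.111). ACTN1 was at 135, 144, 148 and 161 in treated and 185, 189, 196 and 176 in vehicle tumors, and GSN at 12.5, 9.54, 14.0 and 11.7 against 7.48, 6.84, 4.01 and 5.74. The list of 24 genes of the actin cytoskeleton and SRF, of which 21 were tested, had a median log2 fold change of -0.08, with 16 members lower and none called.

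YAP/TAZ target genes are the usual readout of a TEAD inhibitor. All 24 genes of the list were tested, none was called, 16 had a lower and 8 a higher value, and their median log2 fold change was -0.17 beside 0.02 for all genes. At an unadjusted p under 0.05, 7 members were lower and 2 higher (4.09% and 5.95% of all genes), and in 5 members (IGFBP3, F3, NPPB, CCN2 and DOCK5) the highest treated value was under the lowest vehicle value (2.84% of all genes). The mean log2(FPKM + 1) over the list was 5.34, 5.42, 5.38 and 5.42 in the 4 treated tumors and 5.60, 5.69, 5.66 and 5.56 in the 4 vehicle tumors, so the arms of this mean did not overlap. It was 5.64 ± 0.121 (SD, n = 5) in untreated tumors.

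IGFBP3, a secreted binding protein of insulin-like growth factors, had the lowest log2 fold change of the list, -1.20 ± 0.35 (SE, adjusted p = 0.173). Its FPKM was 77.4, 74.7, 66.6 and 69.8 in treated and 177, 170.2, 138 and 187 in vehicle tumors, and 169 ± 56.7 (SD, n = 5) in untreated ones. F3 (tissue factor, which starts coagulation) was at 32.5, 64.5, 65.4 and 53.2 against 105, 110.0, 136 and 68.2, a log2 fold change of -0.96 (adjusted p = 0.429), and its arms were separated by the narrow gap between 65.4 and 68.2. NPPB (B-type natriuretic peptide) was at 29.1, 30.8, 22.7 and 27.8 against 60.6, 49.4, 51.9 and 49.3 (-0.92, adjusted p = 0.429). CCN2, a matricellular protein and the target most often used as a readout of YAP1, was at 10.7, 9.82, 7.47 and 9.16 against 13.1, 12.9, 10.9 and 16.0 (-0.47, adjusted p = 0.458). The arms of CCN2 were likewise separated by a narrow gap, between 10.7 and 10.9. For CCN1, its relative, the values were 180.5, 223, 176 and 211 against 268, 268, 263 and 196, with vehicle replicate 4 among the treated values (-0.33, adjusted p = 0.619). ANKRD1, a nuclear ankyrin repeat protein, ranged from 1.24 to 1.83 in treated and from 1.50 to 2.14 in vehicle tumors (-0.19). AXL (a receptor tyrosine kinase) was at -0.35, DOCK5 (a Rac exchange factor) at -0.24 and FJX1 at -0.49, all at an unadjusted p under 0.05 and none called.

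The other members lay on both sides of 0. TGFB2 (a TGF-beta ligand) was at -0.76, NT5E (CD73, which makes adenosine) at -0.64, GADD45A (a growth arrest gene) at -0.33, NUAK2 (a kinase) at -0.15, ASAP1 (an Arf GTPase activator) at -0.14 and MYOF (myoferlin) at -0.08. CCDC80, CRIM1, AMOTL2, RBMS3 and FOXF2 lay close to 0 (0.00, 0.03, 0.07, 0.12 and 0.12). AJUBA was at 0.15 and LATS2, itself a Hippo kinase, at 0.18. The highest were ARHGEF17 (a guanine nucleotide exchange factor, 0.39) and PTPN14 (a phosphatase that binds YAP1, 0.44), both at an unadjusted p under 0.05 and with overlapping arms. Vehicle replicate 4 stood apart for 5 targets (CCN1, AXL, CCDC80, NT5E and AJUBA), and without it the median of the list was -0.24.

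**Figure D2:**
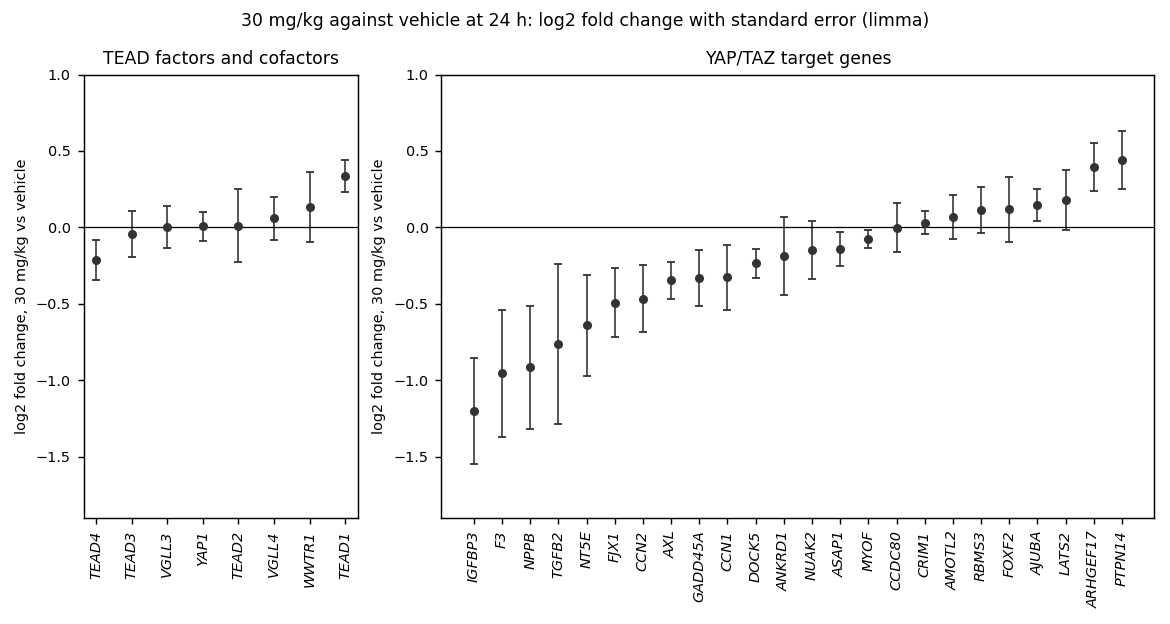
Log2 fold change of 30 mg/kg against vehicle at 24 h, with the standard error of the limma fit, for the TEAD factors and cofactors and for the YAP/TAZ target genes (horizontal axis: genes in order). The targets range from -1.20 (IGFBP3) to 0.44 (PTPN14), and the factors from -0.22 (TEAD4) to 0.34 (TEAD1).

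Of the 10 TEAD factors and cofactors, 8 were tested and none was called (VGLL1 and VGLL2 were below the filter). TEAD1 had the highest log2 fold change (0.34 ± 0.11, SE, adjusted p = 0.244), with 147, 137, 148 and 109 in treated and 106, 89.1, 120.0 and 113 in vehicle tumors, in which treated replicate 5 lay among the vehicle values. TEAD4 had the lowest (-0.22, adjusted p = 0.594), with 42.1, 42.6, 41.1 and 39.5 against 52.3, 46.2, 45.8 and 48.4 and no overlap. The others were TEAD2 at 0.01, TEAD3 at -0.05, YAP1 at 0.01, WWTR1 at 0.13, VGLL3 at 0.00 and VGLL4 (a TEAD corepressor) at 0.06. Of the 22 Hippo kinases and inhibitors, 21 were tested, none was called and the median was 0.02. STK4 was the lowest at -0.41 (26.2, 27.8, 17.2 and 29.2 against 40.2, 29.4, 33.3 and 30.1, adjusted p = 0.311) and PTPN14 the highest.

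To show what lies before these genes, the 250 bases upstream of the start in RefSeq (GRCh38.p14) were searched on both strands for the TEAD motif GGAATG and the AP-1 motif TGANTCA. Matches of the 2 motifs can overlap by their end letters. For a gene with several starts only the window first in coordinate order was used, so a match or its absence holds for that window only. GGAATG was found in 12% of 27305 such windows, in 9.6% of those of 10406 genes tested, and in 8 of 17 YAP/TAZ targets with an entry (47.1%). TGANTCA was found in 6.74%, 4.19% and 2 of 17 (11.8%). The windows of CCN2 and F3 are shown because both had non-overlapping arms and hold different motifs. IGFBP3, the lowest target and also with non-overlapping arms, has neither motif in its window. By log2 fold change, targets with a TEAD match lay on both sides of 0. Lower were TGFB2 (-0.76), CCN2 (-0.47), ANKRD1 (-0.19) and NUAK2 (-0.15), and higher were PTPN14 (0.44), AJUBA (0.15), FOXF2 (0.12) and AMOTL2 (0.07). CCN2 has 3 TEAD matches, at 169, 104 and 95 bases before the start, and F3 has 2 AP-1 matches, at 223 and 210. NOPCHAP1 is shown as the 1 called gene with a match among the 3 called genes that have an entry (GYG2, PIGZ and NOPCHAP1), a TEAD match at 134. Capitals mark the motif letters, on either strand, and the sequences read 5′ to 3′ on the strand of the gene. A match is a description of the sequence and not a site of binding.
CCN2 (minus strand, chr6:131951373-131951622): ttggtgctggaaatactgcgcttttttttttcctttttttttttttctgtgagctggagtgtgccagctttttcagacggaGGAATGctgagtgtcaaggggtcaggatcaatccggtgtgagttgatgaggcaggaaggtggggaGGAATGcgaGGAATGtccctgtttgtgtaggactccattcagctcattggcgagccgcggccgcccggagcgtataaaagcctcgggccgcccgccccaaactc
F3 (minus strand, chr1:94541760-94542009): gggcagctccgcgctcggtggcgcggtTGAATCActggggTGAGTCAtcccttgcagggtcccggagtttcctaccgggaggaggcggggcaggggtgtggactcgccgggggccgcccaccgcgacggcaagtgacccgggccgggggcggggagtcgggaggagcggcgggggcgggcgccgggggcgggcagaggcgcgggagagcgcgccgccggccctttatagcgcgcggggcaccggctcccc
NOPCHAP1 (plus strand, chr12:104986066-104986315): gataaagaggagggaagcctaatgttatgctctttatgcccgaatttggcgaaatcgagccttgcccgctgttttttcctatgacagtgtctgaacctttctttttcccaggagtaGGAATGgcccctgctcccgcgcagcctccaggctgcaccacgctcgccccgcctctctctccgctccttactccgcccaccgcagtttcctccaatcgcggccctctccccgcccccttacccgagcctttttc

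The deR score sums the pathway over many genes. It is the mean rank of 249 positive minus that of 233 negative YAP1-TEAD effectors within a library, and the study chose both lists on other data. It was 0.185, 0.205, 0.211 and 0.210 in the treated tumors and 0.224, 0.225, 0.232 and 0.200 in the vehicle tumors, with means of 0.203 ± 0.0121 (SD, n = 4) and 0.220 ± 0.0138 (SD, n = 4). The difference of -0.0175 did not pass the two-sided exact permutation test (p = 0.114, adjusted over 3 tests 0.171; the smallest p for 4 against 4 is 0.0286). Only treated replicate 2 lay below all vehicle tumors. Vehicle replicate 4 was lower than the 3 other treated tumors, and without it the difference was -0.0242 (adjusted p = 0.0429, exact permutation test). This tumor was the only vehicle tumor within the treated range. Without it the arms do not overlap, and the unadjusted p is the smallest that the remaining tumors allow. Leaving out each of the other 7 tumors in turn gave an adjusted p of 0.171 to 0.257 (exact permutation test). Untreated tumors had a score of 0.217 ± 0.00969 (SD, n = 5).

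Among the positive effectors, 240 were tested, none was called, and 163 had a lower value at 30 mg/kg. The median log2 fold change was -0.11, and 27 were lower and 9 higher at an unadjusted p under 0.05 (4.09% and 5.95% of all genes). The lowest was FST (follistatin, which binds activins), at 0, 1.17, 4.04 and 5.31 against 11.4, 7.81, 6.32 and 4.21 (-1.48), and the highest OLFML3 (0.50). Among the negative effectors, 195 were tested, none was called, the median was 0.05, and 22 were higher and 3 lower at that level (5.95% and 4.09% of all genes). The highest was TPD52L1 (1.17 ± 0.32, SE, adjusted p = 0.124), at 87.6, 50.2, 44.5 and 52.1 against 28.8, 24.4, 15.3 and 33.9 with no overlap, and the lowest ABI3BP (-0.86).

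The doses were then compared with each other, which uses no vehicle tumor. At 200 against 30 mg/kg, 26 genes were called, 2 higher (0.0153%) and 24 lower (0.184%), and both the dose and the dosing volume differed. Of the YAP/TAZ targets, 4 of 24 were called, all lower at 200 mg/kg: CCN2 (-0.98, adjusted p = 0.0143), CCN1 (-0.93, 0.0143), AJUBA (-0.44, 0.0346) and CRIM1 (-0.31, 0.0385). TEAD4 was also lower (-0.53, 0.0396). Of the positive effectors 13 were called lower, and no negative effector was called. These 13 are not additional genes throughout, since the effector list itself holds TEAD4, CCN1, CCN2 and CRIM1. It also holds THBS1 and MCM10, named next. The called genes with the lowest log2 fold changes and no overlap were TEDC2 (a centriole protein, -1.29), KCND3 (a voltage-gated potassium channel, -1.20, adjusted p = 2.3e-09), THBS1 (thrombospondin 1, -1.19, 2.1e-04), FAM111B (-1.13) and MCM10 (a replication initiation factor, -1.05). The 2 higher genes, named after their values were seen, were STAT6 (0.45) and TSKU (0.57).

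KCND3 had the smallest p between the doses. It was at 69.3, 52.8, 61.2 and 63.5 in the 30 mg/kg tumors and 51.6, 53.6, 56.6 and 61.3 in vehicle (0.14, adjusted p = 0.784), while the means were 35.5 ± 9.40 (SD, n = 4) at 100 mg/kg and 26.4 ± 3.59 (SD, n = 5) at 200 mg/kg. It was the only gene called at 100 against 30 mg/kg (0.00767% of genes lower, -0.80, adjusted p = 0.00311), a comparison in which the volume was the same, and this call was lost with only the 2 groups or only the 24 h groups fitted (limma, 0 genes called, 537 and 631 at an unadjusted p under 0.05). THBS1 was at 32.3, 35.0, 37.8 and 34.5 at 30 mg/kg against 32.4, 44.2, 37.7 and 37.8 in vehicle (-0.11), and at 19.7 ± 5.09 (SD, n = 4) and 15.2 ± 4.18 (SD, n = 5) at the higher doses. IGFBP3 was at 72.1 ± 4.85 (SD, n = 4) at 30, 73.3 ± 26.4 (SD, n = 4) at 100 and 52.0 ± 26.1 (SD, n = 5) at 200 mg/kg, and 200 against 30 mg/kg gave -0.60 (adjusted p = 0.624). The CCN2 means were 13.2 in vehicle, 9.29 at 30, 7.49 at 100 and 4.32 at 200 mg/kg. The deR score was 0.184 ± 0.0211 (SD, n = 4) at 100 mg/kg and 0.166 ± 0.0146 (SD, n = 5) at 200 mg/kg. It differed from that at 30 mg/kg by -0.0369 at 200 mg/kg (exact permutation p = 0.0238, adjusted 0.0714, smallest possible 0.00794) and by -0.0192 at 100 mg/kg (exact permutation p = 0.2, adjusted 0.2). The count of 26 moved with the groups in the fit and with single libraries. Of the 26, 2 were called with only the 2 groups compared and 7 with only the 24 h groups fitted, and no other gene was. The count was 14 and 8 without 30 mg/kg replicates 3 and 5, and 12, 62, 16 and 11 without 200 mg/kg replicates 1, 2, 3 and 5. The single call at 100 against 30 mg/kg became 2 genes without 30 mg/kg replicate 2, without 30 mg/kg replicate 3 or without 100 mg/kg replicate 3, and 4 without 100 mg/kg replicate 1.

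**Figure D3:**
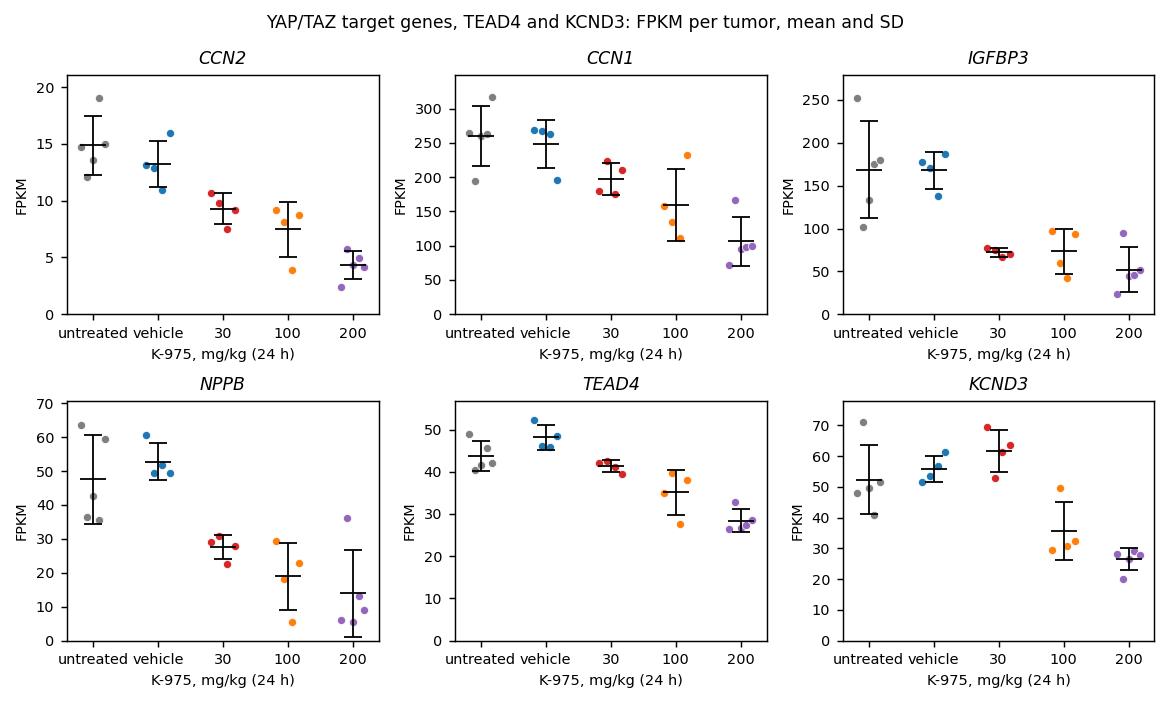
FPKM per tumor of 6 genes of the pathway or of the contrasts between doses in the 5 groups sampled at 24 h (points), with the group mean and SD (black). Mean CCN2 is 13.2 in vehicle, 9.29 at 30 mg/kg and 4.32 at 200 mg/kg, whereas the KCND3 values at 30 mg/kg (52.8 to 69.3) overlap those of vehicle (51.6 to 61.3) and lie above the means of both higher doses.

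Hypoxia and glycolysis genes, which respond to HIF and make up the path from glucose to lactate, were tested as a list of 24. None was called, all 24 had a lower value at 30 mg/kg, and the median log2 fold change was -0.43 beside 0.02 for all genes. At an unadjusted p under 0.05, 10 were lower and none higher (4.09% and 5.95% of all genes), and in 12 of 24 the treated tumors all lay below the vehicle tumors (2.84% of all genes). SLC2A3 (the glucose transporter GLUT3) had the lowest value, -1.20 ± 0.43 (SE, adjusted p = 0.311), at 34.3, 53.8, 23.3 and 56.8 in treated and 88.7, 83.3, 63.4 and 156 in vehicle tumors. ADM (adrenomedullin, a vasodilator peptide) was at 45.9, 61.0, 68.3 and 73.8 against 141, 146, 108 and 123 (-1.06), the glucose transporter SLC2A1 at -0.92, and the prolyl hydroxylase EGLN3 at -0.76. Of the glycolytic enzymes, LDHA (lactate dehydrogenase) was at 857, 795, 804 and 793 against 967, 922, 877 and 1106 (-0.25), PGK1 at -0.43, ENO1 at -0.17 and GAPDH at -0.19. The fold changes of these abundant enzymes were small, and their arms did not overlap. CA9 (carbonic anhydrase 9) was nearest to 0 (-0.05), and VEGFA was at -0.51 (unadjusted p = 0.108). The mean log2(FPKM + 1) of the list was 6.25, 6.16, 5.95 and 6.32 in the treated and 6.66, 6.68, 6.39 and 6.93 in the vehicle tumors, without overlap, and 6.77 ± 0.217 (SD, n = 5) in the untreated ones. It was 5.91 ± 0.270 (SD, n = 4) at 100 and 6.05 ± 0.375 (SD, n = 5) at 200 mg/kg, and no member was called between the doses. Genes of one list in one tumor share that tumor, so the count of 24 is not 24 separate measurements.

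Inflammatory chemokines and cytokines also had lower values. Of 24 genes, 21 were tested (CXCL5, CXCL6 and TNF were below the filter), none was called, all 21 had a lower value, and the median was -0.58. Their spread between tumors was wide: 2 were lower at an unadjusted p under 0.05 (4.09% of all genes), CSF2 (-1.14) and CSF3 (-1.12), both growth factors of myeloid cells, and in 3 of 21 the arms did not overlap (2.84% of all genes). CSF2 was at 1.79, 0.484, 0.492 and 1.08 in treated and 4.05, 4.37, 1.55 and 3.35 in vehicle tumors. IL6 was at -0.81 with a standard error of 1.02, CXCL8 at -0.64 ± 0.98 (SE), and IL33, the nearest to 0, at -0.21. The list mean was 3.97, 4.32, 3.71 and 4.54 in treated and 4.93, 4.94, 4.41 and 4.77 in vehicle tumors, and the arms overlapped. Of the 13 AP-1 and EGR factors tested, immediate early transcription factors, 10 had a lower value, and the median was -0.27. FOSL1 (FRA1) was the lowest at -0.99, with 42.7, 89.8, 54.9 and 73.8 against 144, 137, 132 and 96.2, and MYC the highest at 0.06. None was called. Immune markers summed to 104 to 160 in treated and 148 to 227 in vehicle tumors, led by CD68 (128, 156, 97.7 and 150.1 against 162, 142, 186 and 222). These are human genes in tumors of a mouse host, so their sums are not a measure of host immune cells. Their relation to the cytokine values was not tested.

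Cell cycle genes were held in 2 lists. All 32 G2/M and mitosis genes had a lower value at 30 mg/kg, with a median of -0.28, but none was called, 4 were lower at an unadjusted p under 0.05 (4.09% of all genes), and in none of the 32 did the arms separate (2.84% of all genes). AURKB (Aurora kinase B) was the lowest at -0.64, with 19.1, 19.8, 19.3 and 26.9 against 35.5, 36.1, 44.7 and 21.6, where vehicle replicate 4 lay among the treated tumors. The proliferation marker MKI67 was at -0.27, TOP2A at -0.30 and NEK2, nearest to 0, at -0.03. Without treated replicate 2 the median was -0.15. The list mean was 3.99, 4.41, 4.39 and 4.38 in treated and 4.57, 4.54, 4.92 and 4.23 in vehicle tumors. Of the 33 G1/S and DNA replication genes, 24 had a lower value and the median was -0.07, which was -0.17 without treated replicate 3 and -0.19 without vehicle replicate 4. ORC1 (origin recognition) was the lowest at -0.66 and CCND2 (cyclin D2) the highest at 1.07, with 14.6, 8.81, 18.7 and 9.89 against 5.77, 4.79, 4.26 and 7.24, neither called. Against untreated tumors CCND2 was at -0.061. At 200 against 30 mg/kg the G1/S list had a median of -0.35 with 2 genes called lower, and the G2/M list a median of -0.13 with 0. Over all genes in that comparison the median was 0.01, and 0.184% were called lower. The median of the 18 p53 target genes tested was 0.10, from GDF15 at -0.49 to BBC3 (PUMA) at 0.44.

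Mesothelial markers had higher values at 30 mg/kg in all 14 genes tested of 15 (DES was below the filter), with a median of 0.24, and none was called. Of the 14, 4 were higher at an unadjusted p under 0.05 and in 5 the arms did not overlap (5.95% and 3.9% of all genes). LRRN4 was at 43.6, 35.0, 36.3 and 37.4 in treated and 27.6, 22.9, 21.4 and 24.0 in vehicle tumors (0.65, adjusted p = 0.0733). CALB2 (calretinin, the standard mesothelioma marker) was at 742, 632, 714 and 673 against 485, 506, 486 and 554 (0.44, adjusted p = 0.111), and MSLN (mesothelin) at 351, 287, 305 and 290.0 against 239.8, 247, 216 and 268 (0.34). KRT19 was at 0.24, KRT7 at 0.28, WT1 at 0.07 and PDPN (podoplanin), the lowest, at 0.05. The list mean was 6.72, 6.57, 6.61 and 6.65 in treated and 6.38, 6.37, 6.31 and 6.42 in vehicle tumors, without overlap, and 6.38 ± 0.175 (SD, n = 5) in untreated tumors, whose range of 6.20 to 6.65 reached into the treated one. In a bulk tumor, a larger share of tumor cells and more RNA per cell cannot be told apart. The human markers of other cells, which do not measure mouse host cells, had medians of -0.10 (7 fibroblast genes tested), -0.08 (4 endothelial) and -0.01 (5 immune), with none called. Only 1 red cell gene (HBA2, -0.93) and 2 hepatocyte genes (APOA1 at 0.31 and TF at -0.16) were tested.

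**Figure D4:**
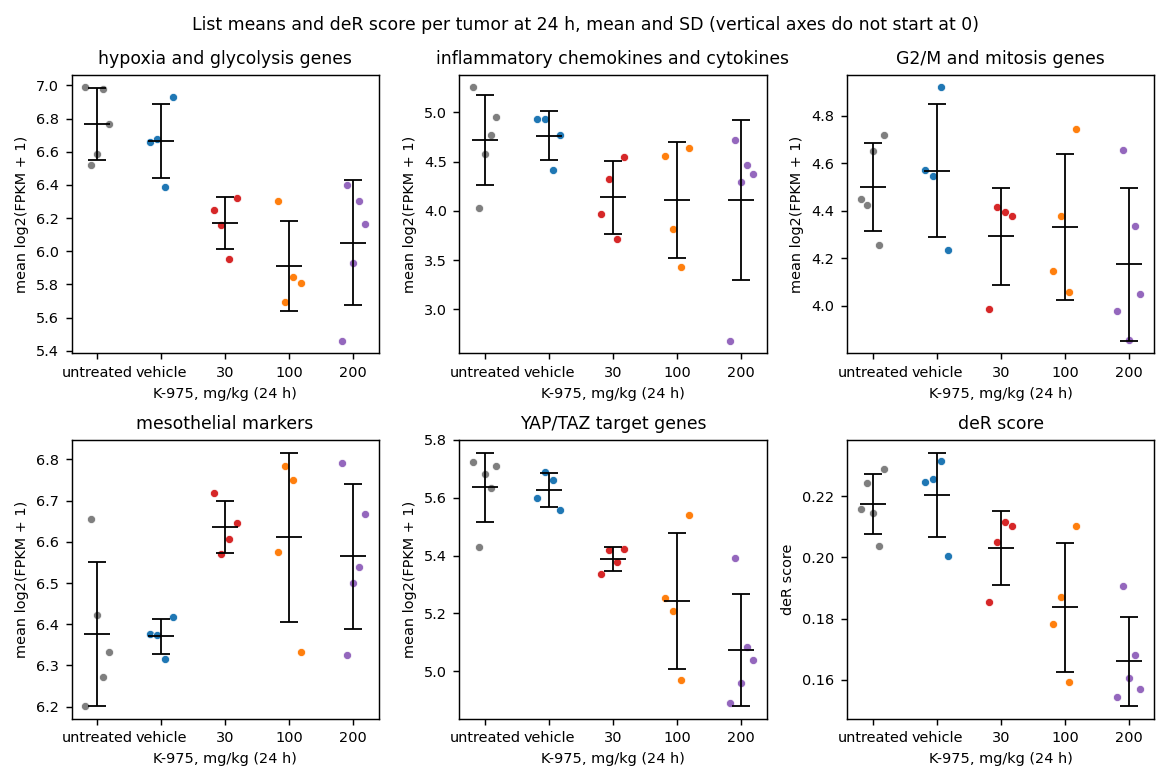
Mean log2(FPKM + 1) over the tested genes of 5 lists, and the deR score, for each tumor of the 5 groups sampled at 24 h (points), with the group mean and SD (black). The vertical axes do not start at 0. The 30 mg/kg and vehicle tumors do not overlap for the hypoxia and glycolysis, mesothelial and YAP/TAZ lists, and overlap for the inflammatory and G2/M lists and the deR score. Among all 39 lists, no other had means without overlap between these groups.

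Sterol synthesis genes, which SREBP2 controls, had a median of -0.14 over the 21 tested of 22, with 17 at a lower value, 6 lower and 1 higher at an unadjusted p under 0.05 (4.09% and 5.95% of all genes), and none called. SC5D was the lowest at -0.60. INSIG1, which retains SREBP in the endoplasmic reticulum, was at -0.53, and PMVK the highest at 0.41. Without treated replicate 2 the median was -0.088. At 200 against 30 mg/kg the median was -0.27, and IDI1 was called lower (-0.71, adjusted p = 0.00444). Of the fatty acid synthesis genes the median was 0.01, from ELOVL6 at -0.63 to ACACB at 0.22, and FASN was lower at 200 than at 30 mg/kg (-0.66, adjusted p = 1.0e-03).

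In the remaining lists no gene was called at 30 mg/kg, and the lists are given by their medians and extremes. Genes of the integrated stress and unfolded protein response had a median of -0.13 over 22 genes, from DDIT3 at -0.58 to VLDLR at 0.40. TGF-beta ligands, receptors and targets had a median of -0.16 over 22 genes, with LTBP3 the highest at 0.40. DDIT3 (CHOP) is a transcription factor of stressed cells, and its arms did not overlap. The activin and follistatin genes, with FST as the lowest, had a median of -0.17 over 10 genes, and ACVR2A was the highest at 0.44. Feedback genes of the MAPK pathway had a median of -0.10 over 14 genes, from SPRED3 at -0.98 to SPRY2 at 0.22. The EGFR family and its ligands had a median of 0.07 over 11 genes, from NRG1 at -0.39 to EGF at 0.75. Glucocorticoid-responsive genes had a median of -0.06 over 11 genes, from ERRFI1 at -1.07 to TSC22D3 at 0.70. ERRFI1 restrains EGFR and was at 26.1, 18.7, 8.91 and 17.4 against 40.2, 31.4, 33.2 and 40.9 without overlap, and TSC22D3 (GILZ) is a usual glucocorticoid target. Circadian clock genes had a median of -0.09 over 18 genes, from PER1 at -0.85 to DBP at 0.90. PER1 is a repressor of the clock and DBP one of its output factors, and their arms overlapped. NRF2 targets had a median of 0.01 over 14 genes, from GCLM at -0.23 to AKR1C3 at 0.71. Heat shock chaperones had a median of -0.08 over 14 genes, from HSPD1 at -0.21 to HSPA4L at 0.22. Metallothioneins had a median of -0.04 over 8 genes, from MT2A at -0.82 to MT3 at 0.25. MT2A, which binds zinc and copper, was at 433, 479.7, 392 and 424 against 832, 806, 589 and 851. Xenobiotic response genes had a median of 0.27 over 6 genes, from TIPARP at -0.20 to ALDH3A1 at 0.49.

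Collagens had a median of -0.03 over 19 genes, from COL5A2 at -0.79 to COL4A5 at 0.52. COL4A5, a chain of basement membrane collagen, was at 97.7, 94.4, 146 and 123 against 82.0, 82.9, 79.7 and 71.3 (adjusted p = 0.111). Integrins and laminins had a median of 0.07 over 25 genes, from ITGA5 at -0.62 to ITGA7 at 0.82. ITGA5 and ITGA7 are alpha chains of receptors for fibronectin and laminin, and 5 genes of that list were higher and 1 lower at an unadjusted p under 0.05 (5.95% and 4.09% of all genes). EMT factors and cadherins had a median of -0.13 over 12 genes, from SNAI2 at -0.38 to CDH1 at 0.53. The actin and SRF list ran from CNN1 (calponin 1) at -0.52 to MYL9 at 0.23. Genes of the interferon response and antigen presentation had a median of -0.07 over 28 genes, from OASL at -0.33 to IRF9 at 0.19. Acute-phase genes had a median of -0.01 over 10 genes, from SAA1 at -0.75 to HP at 0.61. Because K-975 occupies the palmitate pocket, the enzymes that add and remove palmitate were listed too, and these 29 genes had a median of -0.02, from ABHD17C (a depalmitoylase) at -0.71 to ZDHHC24 at 0.88. The 14 tested genes of the BCL2 family had a median of -0.04, with BIK the lowest at -0.41 and BBC3 the highest. Subunits of oxidative phosphorylation had a median of 0.05 over 33 genes, from NDUFV2 at -0.23 to SDHD at 0.28. Among these lists, those with 10 or more tested genes had medians between -0.17 and 0.07.

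Untreated tumors gave a further control of the same study. At 30 mg/kg against untreated, 46 genes were called, 33 higher (0.253%) and 13 lower (0.0997%), and at vehicle against untreated 0 were called (limma, 547 at an unadjusted p under 0.05). CARNS1 (1.02, adjusted p = 0.0211) and CTTN (0.26, 0.0211) were called here too, against 9.81 ± 2.43 (SD, n = 5) and 226 ± 18.2 (SD, n = 5) in untreated tumors. GYG2 (0.73, 0.245), PIGZ (0.47, 0.0784) and NOPCHAP1 (-1.05, 0.124) were not. Against untreated tumors the mesothelial markers LRRN4 (0.66) and CALB2 (0.52) and the exchange factor ARHGEF26 (0.58) rose, and ACTN1 (-0.32) and the stress genes DDIT3 (CHOP, -0.86) and HSPA5 (BiP, -0.42) fell. No YAP/TAZ target was called. IGFBP3 was at -1.15 (adjusted p = 0.0961) and the list median was -0.21. Of the 240 positive effectors tested, 2 were called higher and 0 lower, with a median of -0.09. No negative effector was called, and their median was 0.07. Both comparisons use the same 4 treated tumors, so their values are not independent. The count of 46 was 1, 24, 22 and 28 without treated replicates 2, 3, 4 and 5, and 8, 110, 12 and 4 without untreated replicates 1, 2, 4 and 5.

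The effect at 24 h was compared with that of 30 mg/kg at earlier times in the other studies of the series by an interaction contrast. No gene was called for 24 h minus 1 h (limma, smallest adjusted p = 0.0938, 988 at an unadjusted p under 0.05) or for 24 h minus 3-6 h (0.453, 857). At 30 mg/kg against vehicle, 0 genes were called at 1 h (571 at an unadjusted p under 0.05) and 2 at 3-6 h (917). For CARNS1 the difference of effects was 1.47 ± 0.32 (SE, adjusted p = 0.0938) against 1 h and 1.07 ± 0.28 (adjusted p = 0.453) against 3-6 h. For IGFBP3 it was -1.24 ± 0.47 (0.547) and -0.57 ± 0.41 (0.830). The median of the YAP/TAZ list against vehicle was 0.01 at 1 h, -0.08 at 3-6 h and -0.17 at 24 h, and that of the hypoxia and glycolysis list -0.09, -0.23 and -0.43. Other lists changed direction between the times. The G2/M list had medians of 0.05, 0.13 and -0.28, with 0 of 32 genes lower at 3-6 h and all 32 at 24 h. The sterol synthesis list had medians of 0.01, 0.13 and -0.14, with 1 of 21 genes lower at 3-6 h and 17 at 24 h. The times come from separate studies, so time and study cannot be told apart.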

How the data were processed

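Libraries of NCI-H226 xenograft tumors were made with KAPA RNA HyperPrep, enriched with KAPA HyperCap probes and read as paired ends on a NextSeq. The authors deposited FPKM per gene and library. STAR and GRCh38 are named in the submitters' processing notes without a version or role; the counting tool, the use of strand and the treatment of mouse reads are not given in the sources used here. FPKM hold no counts, so depth is unknown, and probe capture also sets a gene's level. The table had 20555 entries; 316 repeats of an ID were dropped, leaving 20239 IDs, and 32 blank cells were read as 0. Of the IDs, 20200 were in GENCODE 29 (GRCh38), 15632 with an identical locus, and the table's coordinates are given here 1-based.

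Groups came from the cage group labels (19 groups), and 91 of 94 libraries had at least 10000 genes at an FPKM of 1 or more. Genes that reached an FPKM of 1 in 4 or more libraries (13036) were tested on log2(FPKM + 1) with limma 3.58.1 in R 4.3.3 (lmFit, eBayes with trend and robust, 1 coefficient per group), adjusted by Benjamini-Hochberg per comparison at 0.05. The scale understates fold changes of low genes. The deR score ranked the effector genes among themselves in each library, and group means were compared by two-sided exact permutation tests adjusted over 3. Lists are described by counts and medians without a test. Named genes are the genes called, the pathway genes and targets, the 5 smallest p in each direction that were not called, the extremes of each list, and the 5 highest and lowest called genes without overlap between doses. A few genes that this rule or the lists hold are not reported here. The comparison, the lists and the tests were chosen with earlier results of these data known. Alternatives were other pseudocounts, filters, scalings, samples in the fit, controls and leaving out single libraries. Promoter sequences came from RefSeq (GRCh38.p14), matched by symbol. A reference symbol was found for 20124 IDs, and 10406 of the genes tested had a promoter entry.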

Additional observations from a re-analysis of the deposited data

Results flagged for a closer look

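Vehicle replicate 4 lay apart from the other 3 vehicle tumors in FPKM for 5 YAP/TAZ target genes by Dixon's test for a single far value. It was the lowest for 4 of them, with CCN1 at 196 against 263 to 268 in the others, AXL at 182 against 219 to 225, NT5E at 203 against 274 to 288 and AJUBA at 43.0 against 53.8 to 55.0. It was the highest for CCDC80 at 1209.7 against 933 to 971. Without it, the log2 fold changes of 30 mg/kg against vehicle were -0.44 for CCN1, -0.42 for AXL, -0.76 for NT5E, 0.064 for AJUBA and 0.084 for CCDC80. Treated replicate 4 lay apart for 2 genes, with MYOF at 309.7 against 275 to 278 in the other treated tumors and DOCK5 at 132 against 144 to 145. Of the 76 groups of values checked this way 7 held such a tumor, and chance alone marks about 1 in 20.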

How the results depend on the processing

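Of the count of called genes, 5 at 30 mg/kg against vehicle became 8 with quantile normalization, 32 when only the groups compared were fitted, 0 when only the 24 h groups were fitted, 46 with untreated tumors in place of vehicle and 79 with both controls pooled. It was 4 with median-of-ratios scaling or without trend and robust estimation, and 6 without the filter or with an FPKM of at least 5. Leaving out single libraries gave 0 to 3. For 200 against 30 mg/kg the count of 26 was 2 with only the groups compared, 7 with only the 24 h groups and 8 to 62 without single libraries. For 100 against 30 mg/kg the count of 1 was 0 in both restricted fits, 2 at either smaller pseudocount (0.1 and 0.5) or at an FPKM of at least 5, 4 without the filter and 1 to 4 without single libraries. For 30 mg/kg against untreated the 46 were 30 with quantile normalization and 1 to 110 without single libraries. The count of genes whose effect differed from that at 1 h or at 3-6 h ranged from 0 to 2 and from 0 to 1. The cause of these shifts was not tested beyond what each setting changes. With all 94 libraries, which add the 3 left out (1 at 30 mg/kg with 702 genes), the counts were 2960, 4668, 4482 and 4113 in the order 30 against vehicle, 200 against 30, 100 against 30 and 30 against untreated, and the deR difference of 100 against 30 mg/kg turned to 0.00491. The deR difference of 30 mg/kg against vehicle ranged from -0.0242 to -0.0116 without single libraries, and that of 200 against 30 mg/kg passed the threshold on per-gene z-scores (-0.981, adjusted p = 0.0476, exact permutation test).

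In the log2 fold change of 30 mg/kg against vehicle, signs turned mainly with all 94 libraries: PIGZ -0.41, TEAD1 -1.08, TEAD2 -0.63, YAP1 -1.23, WWTR1 -0.67, VGLL3 -1.41, VGLL4 -1.36, AMOTL2 -0.91, LATS2 -0.82, AXL 0.24, F3 0.15, CRIM1 -0.16, FOXF2 -0.31, PTPN14 -0.27, ARHGEF17 -0.66, RBMS3 -1.14, AJUBA -1.02, ARHGEF26 -0.24, VPS52 -0.35, ANXA8 -1.21, LRRN4 -0.41, MYC -1.09, SPRY2 -0.13, HSPA4L -0.38, MT2A 0.14, PMVK -0.73, ACACB -0.51, VLDLR -0.84, BBC3 -0.17, MYL9 -0.69, ACVR2A -0.19, IRF9 -1.002, CDH1 -0.14, SDHD -0.75, PDPN -1.14, KDR -0.65, ITGAM -0.28, TPD52L1 -0.00086, KCND3 -1.05, FAM111B -0.44 and MCM10 -0.34. Of the other sign changes, those with untreated in place of vehicle were LATS2 -0.089, ANKRD1 0.11, FOXF2 -0.22, CCDC80 0.13, HSPA4L -0.10, CA9 0.0089, CCND2 -0.061, NEK2 0.25 and TF 0.27, and with both pooled FOXF2 -0.067, CCDC80 0.071, NEK2 0.12 and TF 0.076. With quantile normalization they were TEAD2 -0.034 and CCDC80 0.070, with median-of-ratios scaling TEAD2 -0.0044, YAP1 -0.010 and VGLL3 -0.013, and NEK2 was 0.11 at a pseudocount of 0.1 and 0.0038 at 0.5. Without single libraries the ranges that crossed or reached 0 were TEAD2 -0.087 to 0.11, TEAD3 -0.11 to 0.014, YAP1 -0.031 to 0.071, WWTR1 -0.040 to 0.30, VGLL3 -0.082 to 0.090, VGLL4 -0.0053 to 0.14, AMOTL2 -0.11 to 0.20, LATS2 -0.0028 to 0.35, CRIM1 -0.0087 to 0.10, FOXF2 -0.023 to 0.23, CCDC80 -0.14 to 0.10, GCLM -0.53 to 0.0022, MT3 0 to 0.34, CA9 -0.28 to 0.15, NEK2 -0.34 to 0.18, PDPN -0.019 to 0.13, ITGAM -0.14 to 0.23 and TF -0.31 to 0.0096. The medians of 9 lists, tried after seeing the data, kept within the spread between replicates in 98 of 108 fits other than those that leave out a library. The 10 that moved were the 9 medians with all 94 libraries (mesothelial markers at -0.41) and the negative effectors without the filter. Without single libraries, the YAP/TAZ median moved to -0.23 without treated replicate 4 and to -0.24 without vehicle replicate 4. No paired analysis was possible because replicate numbers follow the order of the samples and pair no tumors.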

Other observations

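Some genes outside the lists were called at 30 mg/kg against untreated tumors and not against vehicle, and they are named here after their values were seen, with limma's adjusted p. GSTM2 (a glutathione transferase) was at 1.78, 3.40, 3.56 and 3.60 at 30 mg/kg, at 0.637, 0.471, 0.601 and 1.41 in vehicle and at 0.416 ± 0.407 (SD, n = 5) in untreated tumors, with a log2 fold change of 1.55 against untreated (adjusted p = 0.0211) and of 1.20 against vehicle (0.191). SELENBP1 (a selenium-binding protein with methanethiol oxidase activity) was at 29.6, 19.3, 19.8 and 16.7 at 30 mg/kg, at 10.3, 7.35, 8.01 and 11.2 in vehicle and at 9.31 ± 4.84 (SD, n = 5) in untreated tumors, with a log2 fold change of 1.20 against untreated (adjusted p = 0.0211) and of 1.11 against vehicle (0.0964). CLDN15 (a claudin of tight junctions) was at 66.3, 57.8, 66.6 and 53.3 at 30 mg/kg, at 36.4, 39.2, 36.7 and 38.7 in vehicle and at 35.4 ± 8.36 (SD, n = 5) in untreated tumors, with a log2 fold change of 0.79 against untreated (adjusted p = 0.0211) and of 0.67 against vehicle (0.0784). UPP1 (uridine phosphorylase) was at 9.11, 16.2, 9.68 and 11.5 at 30 mg/kg, at 19.1, 17.8, 20.4 and 16.8 in vehicle and at 25.3 ± 5.68 (SD, n = 5) in untreated tumors, with a log2 fold change of -1.06 against untreated (adjusted p = 0.0478) and of -0.66 against vehicle (0.424). CSRNP1 (a nuclear protein of the AXUD family) was at 6.54, 10.9, 6.30 and 7.79 at 30 mg/kg, at 11.9, 14.4, 14.9 and 8.86 in vehicle and at 14.1 ± 2.07 (SD, n = 5) in untreated tumors, with a log2 fold change of -0.78 against untreated (adjusted p = 0.0211) and of -0.61 against vehicle (0.207). RRAD (a small GTPase of the RGK family) was at 20.5, 26.6, 29.8 and 24.4 at 30 mg/kg, at 43.1, 40.4, 46.3 and 34.8 in vehicle and at 48.0 ± 6.27 (SD, n = 5) in untreated tumors, with a log2 fold change of -0.90 against untreated (adjusted p = 0.0294) and of -0.68 against vehicle (0.255). Whether the effect against untreated differs from that against vehicle was tested only as vehicle against untreated, in which 0 genes were called.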
